A study of Mus musculus with 4 samples.

Results

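The complement component genes C3, C4b, C1qa, C1qb, C1qc, C1ra, C1s1, Cfb and C3ar1 were followed by ribosome profiling in FGSCs, cultured female germline stem cells taken from mouse ovary. The 9 genes were chosen by name after the translation efficiency of C3 in these libraries had been seen to be lower in the knockdown. The difference of each gene between the groups is therefore given as a description, and no test of it is offered. Of the 9, 7 stood among the 30694 genes of the gene table, and 2 (C3 and C1s1) had an open reading frame (ORF) among the 4669 ORFs of the ORF table. C1qc and Cfb were not analysed here.

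The FGSCs were infected with lentivirus carrying either a control short hairpin RNA (shNC, n = 2 libraries) or one against the long noncoding RNA Gm26917 (shGm26917, n = 2 libraries). Infected cells were selected with puromycin or blasticidin, so both groups carry an integrated vector, and all 4 were treated with cycloheximide before lysis. The study describes the Ribo-seq replicates as biological, and the labels give neither the strain nor the age of the mice, nor which hairpin against Gm26917 was used. Gm26917 itself had a ratio of ribosome footprints to RNA of 17.0 and 23.8 in the shNC replicates. In shGm26917 replicates 1 and 2 it was 113 and 8.62. This ratio does not show the RNA level of Gm26917, so the knockdown could not be checked in these libraries. The study assessed its knockdown efficiency by RT-qPCR. The comparison addressed which mRNAs gained or lost ribosomes when Gm26917 was depleted.

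Complement is a cascade of secreted proteins that marks microbes and cell debris for removal. C1q binds the target and activates the proteases C1r and C1s, which cut C4 and C2. The resulting convertase cuts C3, and the C3b fragment coats the target, while the small C3a fragment signals through the receptor C3ar1 on myeloid cells. Factor B, the product of Cfb, builds the convertase of the alternative pathway. Most complement protein in blood is made by the liver, and fibroblasts and macrophages also make several components. C1q comes mainly from macrophages and related cells.

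Translation efficiency (TE) is the ratio of the normalized Ribo-seq value to the normalized RNA-seq value of a gene. The median TE of the 10115 genes with a ratio above 0 in every library was between 0.990 and 1.00 in each of them. Over all genes with a ratio, the median was 0.472 and 0.269 with shNC and 0 and 0.307 with shGm26917 (replicates 1 and 2). A TE of 0 was thus common with shGm26917 replicate 1 and is not read as an absence of ribosomes. The shGm26917 libraries had no ratio in the same 5608 genes, and none was blank in only 1 of them, whereas 5901 genes were blank in only 1 of the shNC libraries. Whether 1 RNA measurement stands behind both shGm26917 ratios was not stated, and if so their agreement does not include the error of the RNA. In log2 TE over the genes tested, the correlation of shGm26917 replicate 1 with each other library was 0.772 to 0.783, and among the other 3 it was 0.921 to 0.935, where genes are not independent replicates. Whole reads recovered from the ORF table came to 1618481 for shNC replicate 1, 1049143 for shNC replicate 2, 157914 for shGm26917 replicate 1 and 1753036 for shGm26917 replicate 2. The number of reads behind a TE is unknown, but some ratios recur exactly in many genes, as ratios of small whole numbers do. In shNC replicate 1, for example, C1rb shared its ratio with other genes (60 genes in all at 7.88), whereas no other gene had the ratio of C3 in any library.

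C3, the central protein on which all activation routes converge (chromosome 17, 57203970 to 57228136, minus strand, mm10), had a TE of 3.17 with shNC replicate 1, 3.40 with shNC replicate 2, 1.64 with shGm26917 replicate 1 and 1.90 with shGm26917 replicate 2. Both shGm26917 values lay below both shNC values, so the groups did not overlap. The shNC mean was 3.29 ± 0.165 and the shGm26917 mean 1.77 ± 0.183 (SD over 2 libraries each). The log2 difference was -0.89 ± 0.29 (SE, n = 2 per group), which is 0.538 times the shNC level. Over the 4 pairings of 1 shGm26917 with 1 shNC library, the ratio ran from 0.483 to 0.600. Among all genes tested, C3 stood above 91.6% and 92.7% of genes in shNC and above 69.9% and 78.3% in shGm26917 replicates 1 and 2.

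**Figure D1:**
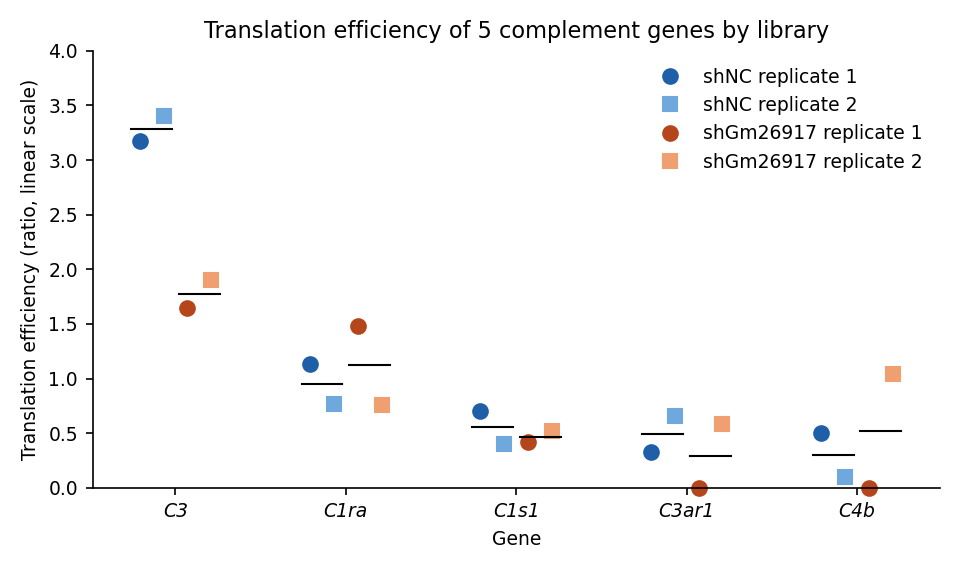
Translation efficiency (ratio, linear axis) of C3, C1ra, C1s1, C3ar1 and C4b in each of the 4 libraries; each point is 1 library and each black line the mean of a group of 2. C3 is the only one of the 5 whose shNC points (3.17 and 3.40) both lie above its shGm26917 points (1.64 and 1.90), and points on the axis are ratios of 0.

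C1ra and C1s1 encode the proteases of the C1 complex, which lie next to each other on chromosome 6 with 6901 bases between them. C1ra (124512405 to 124523443, plus strand) had a TE of 1.13 and 0.763 with shNC and of 1.48 and 0.762 with shGm26917 (replicates 1 and 2). The groups overlapped, and the log2 difference was 0.19 ± 0.47 (SE, n = 2 per group). It turned to -0.29 without shGm26917 replicate 1 and to -0.09 without shNC replicate 2, and was 0.67 without shGm26917 replicate 2. C1s1 (124530345 to 124542359, minus strand) had 0.704 and 0.404 with shNC and 0.419 and 0.517 with shGm26917 (replicates 1 and 2). These groups overlapped as well, with a log2 difference of -0.20 ± 0.43 (SE, n = 2 per group), which was 0.20 without shNC replicate 1, -0.60 without shNC replicate 2 and -0.04 without shGm26917 replicate 1. C1ra had the higher TE of the pair in 4 of 4 libraries, by a factor of 1.60 and 1.89 with shNC and 3.53 and 1.47 with shGm26917 (replicates 1 and 2). The C1ra ratio of 0.762 with shGm26917 replicate 2 was that of 28 genes, so it and the factor of 1.47 may rest on few reads. Their duplicates C1rb and C1s2 lie in the same stretch of 123681 bases, and no source used here says how reads shared between the copies were counted.

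The remaining members had ratios that were 0 or blank in at least 1 library. C3ar1, the receptor for C3a (chromosome 6, 122847138 to 122856161), had a TE of 0.332 and 0.656 with shNC, 0 with shGm26917 replicate 1 and 0.582 with shGm26917 replicate 2. C4b, the fourth component of complement (chromosome 17, 34728380 to 34743882), had 0.502 and 0.0999 with shNC, 0 with shGm26917 replicate 1 and 1.04 with shGm26917 replicate 2. In both genes the groups overlapped. C4a, a close copy of C4b on the same chromosome, had 0.313 and 0.346 with shNC, 0 with shGm26917 replicate 1 and 0.137 with shGm26917 replicate 2, and values of these copies are uncertain for the same reason as those of C1r and C1s. C1qa (chromosome 4, 136895917 to 136898803) had no ratio in shNC and was 0 in both shGm26917 libraries. C1qb (chromosome 4, 136880129 to 136886187) had no ratio in any library, so neither measured C1q chain gave a TE above 0.

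Within shNC the order of mean TE was C3 (3.29), C1ra (0.947), C1s1 (0.554), C3ar1 (0.494) and C4b (0.301). C3 stood apart from the others in that its lowest value in any library, 1.64, exceeded the highest of the other 4 genes, 1.48. C1ra lay above C1s1 in both shNC libraries. The ranges of C1s1, C3ar1 and C4b overlapped there, so these neighbours did not differ beyond their spread.

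With limma across all genes, 0 of the 3 members with a ratio above 0 in every library (C3, C1ra and C1s1) were called at an adjusted p under 0.05, against a background of 0% of the 10115 genes. An unadjusted p under 0.05 was found for 219 of the 10115 genes and for 1 of the 3 members, C3. The study's own threshold asked for a 1.5-fold difference and an unadjusted p no higher than 0.05, and 1 of the 3 was lower by it, where 0.86% of all genes tested were. Members lower without overlap numbered 1 of 3, against 14.8% of all genes tested, and members higher without overlap 0 of 3, against 16.1%. Since C3 entered the set for this very difference, nothing is read from these counts. C3 did not reach the study's threshold without shNC replicate 1 (log2 difference -0.94), without shNC replicate 2 (-0.84) or with the replicate number as a block, and its log2 difference stayed between -1.02 and -0.79 in all 10 fits.

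**Figure D2:**
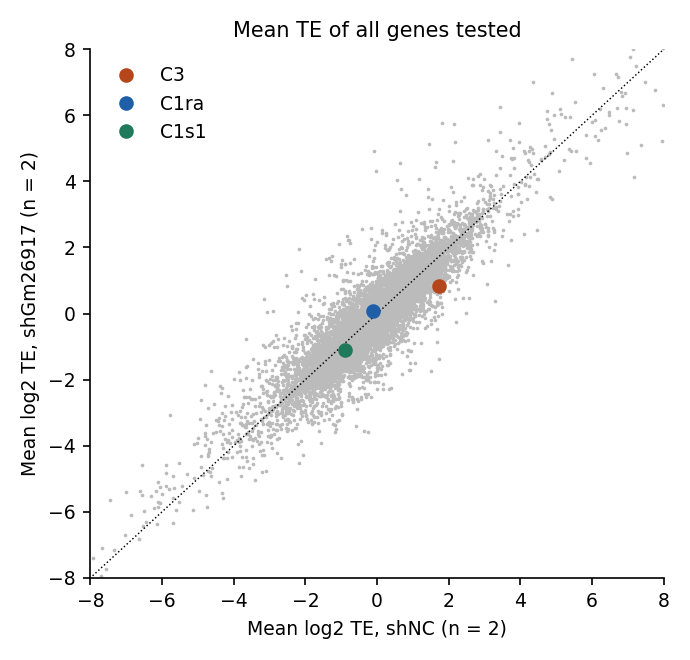
Mean log2 TE in shNC (x axis) against shGm26917 (y axis) for the genes tested, with 57 genes beyond the axis limits of 8 not drawn; each grey point is 1 gene, and the dotted line marks equal TE. C3 lies below the line (log2 difference -0.89), and C1ra (0.19) and C1s1 (-0.20) lie near it.

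Footprints along the coding sequence itself were given in the ORF table as size-adjusted values. In a bulk culture, fewer cells that make a protein and less of it per cell cannot be told apart in these values. The annotated ORF of C3 (57228035 to 57204013, 1663 codons) had values of 1151 and 1161 with shNC, was listed at 0 with shGm26917 replicate 1 and had 607 with shGm26917 replicate 2. The value in shGm26917 replicate 2 was 0.525 times the shNC mean of 1156 ± 6.63 (SD, n = 2). The C3 ORF held 1458 reads with shNC replicate 1, 996 with shNC replicate 2 and 803 with shGm26917 replicate 2. As a share of all ORF reads in a library, C3 took 0.0901% (95% Wilson interval 0.0856 to 0.0948), 0.0949% (0.0892 to 0.101) and 0.0458% (0.0427 to 0.0491) in the same order. These intervals cover counting error only and not the spread between libraries, so the groups are not compared by them. Without shGm26917 replicate 1, the log2 difference of the C3 value was -0.93 (n = 2 shNC and 1 shGm26917). With 1 shGm26917 library the spread within that group is unknown, so no SE is given.

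The ORF of C1s1 (124541355 to 124530944, 694 codons) had values of 97.9 and 65.3 with shNC, was listed at 0 with shGm26917 replicate 1 and had 71.8 with shGm26917 replicate 2. The last value fell between both shNC values. The C1s1 ORF held 124 reads with shNC replicate 1, 56 with shNC replicate 2 and 95 with shGm26917 replicate 2. Its share of reads was 0.00766% (95% Wilson interval 0.00643 to 0.00913), 0.00534% (0.00411 to 0.00693) and 0.00542% (0.00443 to 0.00662). Without shGm26917 replicate 1 its log2 difference was -0.15 (n = 2 shNC and 1 shGm26917, no SE given for the same reason as for C3).

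Per 100 codons, the C3 ORF had values of 69.2 and 69.8 with shNC and 36.5 with shGm26917 replicate 2, and the C1s1 ORF had 14.1, 9.40 and 10.3. C3 was thus occupied 4.91 and 7.42 times as densely as C1s1 with shNC replicates 1 and 2 and 3.53 times as densely in shGm26917 replicate 2. Among annotated ORFs above 0 in the same library, the density of C3 stood above 73.7%, 70% and 59.3% of ORFs. That of C1s1 stood above 36.8%, 25.4% and 32.7%.

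**Figure D3:**
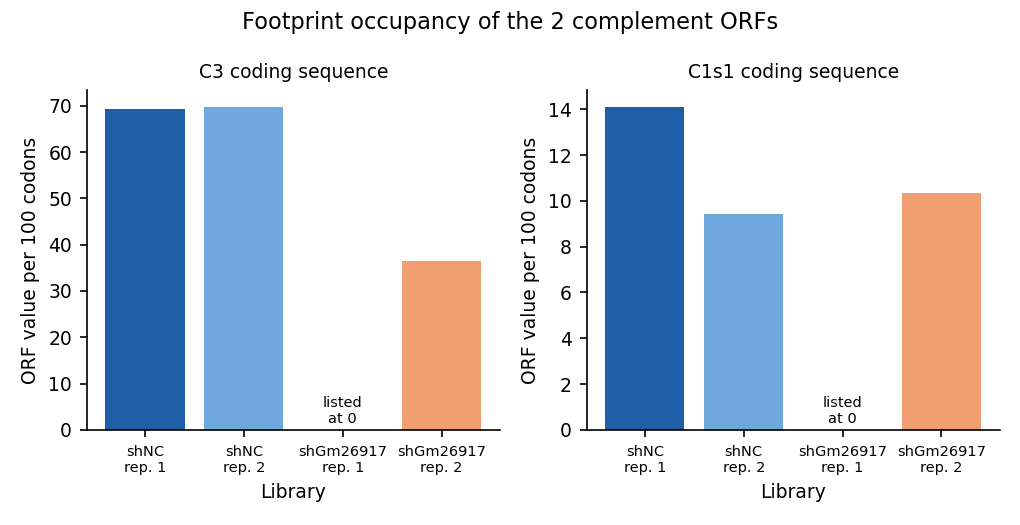
ORF value per 100 codons (y axis from 0) of the C3 and C1s1 coding sequences in each library; each bar is 1 library, and the axes of both panels differ. The C3 bar of shGm26917 replicate 2 (36.5) is lower than both shNC bars (69.2 and 69.8), whereas that of C1s1 (10.3) lies between its shNC bars (14.1 and 9.40).

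The zeros of shGm26917 replicate 1 were not particular to C3 and C1s1. Of all ORFs, 48.8% were listed at 0 in that library and above 0 in the other 3, and both genes had a TE above 0 there (1.64 and 0.419). A value of 0 is therefore not read as an absence of ribosomes, and no fold change is given against it. With limma on the ORF values, 0 of the 2 member ORFs were called at an adjusted p under 0.05, against a background of 0% of 4669 ORFs. An unadjusted p under 0.05 was found for 346 of the ORFs. On whole reads, edgeR called 0 of 3927 ORFs (4 had an unadjusted p under 0.05). DESeq2 called 3 ORFs. C3 was not called by either tool, and DESeq2 gave C1s1 no adjusted p.

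Of 42 other complement genes, grouped by role, 37 were in the gene table, and 8 of them had a TE above 0 in every library. limma called 0 of the 8, with adjusted p from 0.965 to 0.978. An unadjusted p under 0.05 was found for 1, the regulator Serping1. Serping1, the C1 inhibitor that blocks C1r and C1s, had a TE of 4.33 and 4.94 with shNC and of 0.373 and 1.87 with shGm26917 (replicates 1 and 2). Its log2 difference of -2.47 ± 0.81 (SE, n = 2 per group) was -1.31 without shGm26917 replicate 1 and -3.63 without shGm26917 replicate 2. The groups did not overlap. The Serping1 ratio of 4.94 was that of 181 genes with shNC replicate 2, and ratios of small whole numbers recur in this way. Serping1 was at the study's threshold, but not without shNC replicate 1, without shNC replicate 2 or where genes with zeros were kept.

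The order of the groups differed among the other regulators. Cr1l, a membrane regulator of C3 convertases in mice, had 0.465 and 0.524 with shNC and 0.226 and 0.680 with shGm26917 (replicates 1 and 2), so its groups overlapped. C1qbp, a mitochondrial protein that also binds C1q, had 1.20 and 1.19 with shNC and 1.40 and 1.43 with shGm26917. It was higher without overlap, with a log2 difference of 0.25 ± 0.29 (SE, n = 2 per group). Its ORF was among the few listed in every library, at 728 and 865 with shNC and 984 and 551 with shGm26917 (replicates 1 and 2), so there the groups overlapped. Clu, which binds the terminal complex, was at 5.32 and 6.69 with shNC and at 2.92 with shGm26917 replicate 2, below the shNC values. With shGm26917 replicate 1, where zeros were common, it was at 0. The median log2 difference of the 3 regulators tested was -0.33, beside 0.00095 for all genes tested.

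Among the genes of classical and lectin activation, 3 of 12 were tested, and the median log2 difference was 0.91. Masp1, a protease of the lectin pathway, had 1.74 and 1.498 with shNC and 1.20 and 1.08 with shGm26917, lower without overlap (log2 difference -0.51 ± 0.30, SE, n = 2 per group). Fcna, the lectin ficolin A, had 3.58 and 5.59 with shNC and 10.4 and 6.83 with shGm26917, higher without overlap (0.91 ± 0.41). C1s2, the copy of C1s1, had 0.0780 and 0.319 with shNC and 0.254 and 0.425 with shGm26917, with overlap. Cfp, properdin, which stabilises the alternative convertase, had 2.07 and 2.03 with shNC and 1.55 and 2.31 with shGm26917, also with overlap. The Cfp ORF was at 305 and 0 with shNC and at 0 and 371 with shGm26917 (replicates 1 and 2). Itgb2, the shared beta chain of complement receptors 3 and 4, had 0.789 and 0.958 with shNC and 1.03 and 1.29 with shGm26917, higher without overlap (0.40 ± 0.33). Its ORF values ran the other way, at 208 and 128 with shNC, 0 with shGm26917 replicate 1 and 64.2 with shGm26917 replicate 2. No gene of the terminal pathway, which builds the membrane pore, had a ratio above 0 in every library. In all, 2 of the 8 other genes were lower without overlap, against 14.8% of all genes tested, and 3 higher, against 16.1%. Such separation is common with 2 libraries per group, so nothing is read from it for single genes or the set. The median log2 difference of the 8 was 0.06.

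**Figure D4:**
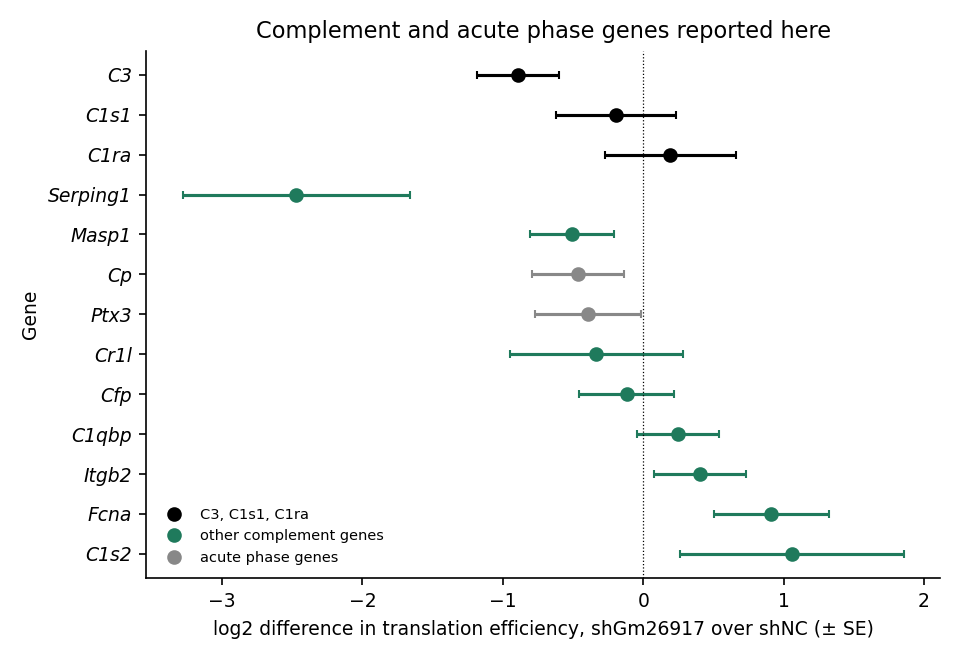
log2 difference in TE (shGm26917 over shNC, x axis) for C3, C1s1 and C1ra, 8 other complement genes and 2 acute phase genes; points are limma estimates, bars are ± 1 SE, and n = 2 libraries per group. Serping1 (-2.47) and C3 (-0.89) lie farthest to the left, and C1s2 (1.06) and Fcna (0.91) farthest to the right. The C1s2 ratios may rest on few reads.

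Genes of the acute phase response, which are often induced together with C3, were listed for comparison, and 2 of 5 were tested. Cp, the copper carrier ceruloplasmin, had 1.90 and 1.38 with shNC and 1.16 and 1.19 with shGm26917 (log2 difference -0.46 ± 0.32, SE, n = 2 per group). Ptx3, a pattern recognition protein that binds C1q, had 7.01 and 6.71 with shNC and 6.69 and 4.07 with shGm26917 (-0.39 ± 0.37). Its ORF had values of 516 and 379 with shNC and 396 with shGm26917 replicate 2, between both shNC values, and was listed at 0 with shGm26917 replicate 1. Lcn2, an iron-trapping protein, had a TE of 5.91 and 4.94 with shNC, 0 with shGm26917 replicate 1 and 1.14 with shGm26917 replicate 2. Its ratio was that of 91 genes with shNC replicate 1 and of 181 genes with shNC replicate 2, so both may rest on few reads. The adjusted p of Cp and Ptx3 was 0.965 by limma.

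The genes whose log2 TE, centred on the gene mean, ran closest to that of C3 over the 4 libraries were sought among 9672 protein-coding genes. They were the splicing factor Srsf10 (root mean square distance 0.0632 on the log2 scale), the RNA-binding ubiquitin ligase Rc3h2 (0.0658) and the cadherin Fat1 (0.0746). The TE of Srsf10 was 0.113 and 0.126 with shNC and 0.0659 and 0.0700 with shGm26917, and that of Fat1 was 2.33 and 2.55 against 1.36 and 1.55. With 4 libraries, such likeness is a description only.

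Markers of the labelled cell type and of others were looked up. For its FGSCs the study reported RT-PCR of Oct4, Ddx4, Fragilis and Blimp1, and immunofluorescence of DDX4 and OCT4. A TE is a ratio of footprints to RNA, so it does not measure how strongly a marker is expressed. Of 9 germline markers, 4 had a TE above 0 in some library (Ifitm3, Kit, Prdm1 and Nanos3), and Ddx4, the defining one, had a ratio only in shNC replicate 2, where it was 0. Of 14 macrophage markers 13 had a TE above 0 in some library, and of 7 fibroblast markers 6. The same held for 2 of 5 granulosa, 2 of 5 epithelial and 3 of 3 endothelial markers, none with an ORF. A single ratio above 0 met this bar, as for the macrophage marker Aif1 (1.69 with shNC replicate 1, 0 elsewhere). The share over all genes was not counted, so these counts do not rank the cell types. The 1 germline marker with an ORF, Ifitm3, had values of 1111 and 797 with shNC, 0 with shGm26917 replicate 1 and 799 with shGm26917 replicate 2. The summed ORF values of the macrophage markers with an ORF (Adgre1 and Ptprc) were 1074 and 772 with shNC, 0 with shGm26917 replicate 1 and 1436 with shGm26917 replicate 2. Adgre1 made up nearly all of these sums (1072, 770, 0 and 1423 in the same order), as Ptprc was at 1.58, 1.17, 0 and 12.8. The defining receptor Csf1r had a TE of 3.94 and 0.618 with shNC, 0 with shGm26917 replicate 1 and 6.58 with shGm26917 replicate 2, and Cx3cr1 was at 0 with shNC. The Csf1r ratio of 3.94 was that of 190 genes with shNC replicate 1, so it may rest on few reads. The summed ORF values of the 6 fibroblast markers with an ORF, collagens among them, were 4126 and 4437 with shNC and 677 and 3093 with shGm26917 (replicates 1 and 2). The 677 was that of Col1a1 alone. C3 and the C1 proteases can be made by both cell types, and the part of these markers in the C3 values was not tested.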

How the data were processed

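The authors deposited a gene table of TE, a ratio per gene and library of normalized Ribo-seq over normalized RNA-seq values, and an ORF table of signal values, reads per ORF called with RiboCode and divided by a size factor. Positions are printed as deposited (mm10, per the submitters' processing notes). For aligner and counting tool, nothing was given in the sources used here. Columns of the authors' own fold changes and p-values were not used, and RNA-seq counts were not analysed here.

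TE was compared across all genes with limma 3.58.1 (lmFit, eBayes with trend; R 4.3.3) on log2(TE), without a pseudocount, for genes above 0 in all 4 libraries. ORF values were compared on log2(value + 1) for ORFs over 1 in at least 2 libraries, which understates differences of low values. P-values were adjusted by Benjamini-Hochberg over the whole table. In each library 100% of ORF values above 0 were whole multiples of the smallest, within 0.01 reads, so whole reads were recovered for edgeR 4.0.16 (TMM, quasi-likelihood) and DESeq2 1.42.0. In shGm26917 replicate 1 too few low values were left to check this on low values alone. P-values measure only the spread between these libraries. The procedure was tested on simulated data.

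The members and gene lists were chosen with earlier results of these data known. All members were named, with every other complement gene on the reported lists that had a TE above 0 in all libraries or an ORF, and the 3 genes closest to C3. 1 gene of the lists is not reported here and was left out of the list counts and medians after its values were seen. C4a, Clu and Lcn2 were named after their values were seen, and all were below both shNC ratios with shGm26917 replicate 2. All were at 0 with shGm26917 replicate 1, where a ratio of 0 was common. Other genes at 0 with shGm26917 replicate 1 went the other way with shGm26917 replicate 2. Itgax was at 1.33 there (0.328 and 0.575 with shNC) and C8g at 1.13 (0.107 and 0.860 with shNC). Alternatives were another pseudocount, no filter on zeros, quantile normalization, median centring, the replicate number as a block, and leaving out each library. For ORFs they were a pseudocount of 10, only ORFs above 0 in all 4 libraries, the count tools, the block and leaving out each library.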

Additional observations from a re-analysis of the deposited data

How the results depend on the processing

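The log2 difference in TE of C3 was below 0 in the main fit and under all 9 alternatives (-1.02 to -0.79). C3 was chosen for this difference, and both its shGm26917 ratios lay below both shNC ratios. Leaving out a library therefore could not turn its sign, and nothing is read from this. Signs turned for C1ra without shNC replicate 2 or shGm26917 replicate 1 (range without 1 library -0.29 to 0.67), and for C1s1 without shNC replicate 1 (-0.60 to 0.20). They also turned for Cfp (-0.40 to 0.17) and Cr1l (-1.13 to 0.46) without shGm26917 replicate 1. With 1 library left out, the number of genes called for TE ranged from 0 to 583 and of those lower at the study's threshold from 14 to 1798 (87 as reported, 356 where genes with zeros were kept). For ORFs these ranges were 0 to 1982 called and 203 to 2094 lower at the study's threshold (336 as reported, 8 over ORFs above 0 in all libraries, 2 by edgeR). DESeq2 called 3 ORFs. The counts marked as reported, 87 genes and 336 ORFs, came from the main limma fits made here and are not the study's. By its own analysis the study gave larger counts of lower genes and ORFs, and these were not reproduced here. In all 4 ranges the upper end came without shGm26917 replicate 2, so that its group was the library of fewest reads alone. The lone library is assumed to vary like the others. The cause was not tested.

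The log2 deviations of same-numbered libraries correlated at -0.043 for TE and -0.086 for ORF values. With so few reads in shGm26917 replicate 1, this cannot show whether same-numbered libraries share a culture or batch. With the replicate block, 93 genes were lower at the study's threshold for TE and 239 ORFs for ORF values, and 0 were called in either table. The depth behind each TE is unknown, and that of C1s1, at 56 to 124 reads where listed, limits its ORF values.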
